A study of Mus musculus with 4 samples.

Results

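Genes of the primitive streak, the mesoderm and the primitive, visceral and definitive endoderm were examined in mouse embryonic stem cells (ESCs) depleted of Ythdf2. The set comprised 38 genes picked by lineage, and all 38 had a row among the 49997 genes of the count table. They were arranged in 7 lineage groups: primitive streak and nascent mesoderm (5 genes), presomitic and paraxial mesoderm (6), lateral plate, cardiac and mesenchymal mesoderm (6), blood and endothelial mesoderm (4), primitive endoderm (7), visceral endoderm products (7) and definitive endoderm (3). The cells were of the E14 line, pluripotent ESCs taken from the early mouse embryo. They were grown without feeder cells on gelatin in a serum-replacement medium containing leukemia inhibitory factor. The study's methods give this culture for ESCs with a tdTomato reporter under the MERVL promoter. Its stable Ythdf knockdown cells are described as carrying that reporter, which the labels of these libraries do not mention. Control libraries (shScramble, n = 2) came from cells with a lentiviral short hairpin RNA (shRNA) of scrambled sequence, and knockdown libraries (shYthdf2, n = 2) from cells with an shRNA against Ythdf2, whose protein binds mRNAs carrying N6-methyladenosine. Both groups went through infection and puromycin selection, and the vector also carries a red fluorescent protein. The labels do not say which of the shRNAs designed in the study was used, so a property of 1 hairpin cannot be told apart from depletion of Ythdf2. The study's methods call the libraries of a group independent biological replicates, and with 2 in each group every p-value below rests on the spread between these 4 libraries.

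At gastrulation, cells of the epiblast pass through the primitive streak and become mesoderm or definitive endoderm. Nascent mesoderm then divides into paraxial mesoderm, which forms the somites, lateral plate mesoderm, which forms heart and limb tissue, and the precursors of blood and vessels. Primitive endoderm is set aside earlier, in the blastocyst, and gives rise to the parietal and visceral endoderm of the yolk sac. ESCs kept with leukemia inhibitory factor are expected to express few of these genes strongly, although cultures can hold cells that have begun to differentiate. In such bulk samples, fewer cells of a type and less RNA per cell cannot be told apart.

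The libraries held 36422510 and 31113006 counted reads in shScramble and 34812976 and 35305720 in shYthdf2. Where a library held 0 reads of a gene, its level is taken to be at most that of 3 reads. That is between 0.083 and 0.095 CPM (read counts scaled to the library total). This limit covers counting error only and treats reads as independent. Since both reads of a pair were counted, it is too low even for that error. Ythdf2 itself had 3365 and 2760 reads in the controls and 1086 and 1082 after knockdown, which left 34.2% of the control level (log2 fold change -1.55, SE 0.11, edgeR adjusted p = 0.00069). Markers of ESCs were abundant in all 4 libraries. The levels of 10 such genes, including Pou5f1, Nanog and Sox2, were summed in RPKM (reads scaled to exon length and library total). The sum was 3260 and 3415 RPKM in shScramble and 2971 and 2716 RPKM in shYthdf2, so both knockdown libraries were below both controls. Without Dppa5a, the most abundant, it was 1992 and 1944 RPKM against 1789 and 1681 RPKM. The fall was not shared by all 10 genes, of which 8 had negative and 2 positive log2 fold changes. Pou5f1 was among the positive ones, at 247 and 232 RPKM in shScramble and 282 and 244 RPKM in shYthdf2, overlapping groups. The shYthdf2 libraries were less alike in a list of 12 markers of 2-cell-like cells, whose summed level was 35.4 RPKM in replicate 1 and 100 RPKM in replicate 2, against 17.4 and 27.6 RPKM in shScramble. Values without 1 library are given beside the results that it moves most.

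Promoters are shown for 3 of the genes, chosen because the results return to them. They are Sparc, the most abundant of the set, Msx2, with more reads in both shYthdf2 libraries, and Afp, a weakly read yolk sac product. Each window runs from 250 bases before to 50 bases after the annotated start, 5′ to 3′ on the strand of the gene, from RefSeq (GRCm38.p6), which had a window for 27 of the 38 genes. Capitals mark CG dinucleotides in Sparc (chr11:55420031-55420330, minus strand) and Msx2 (chr13:53472731-53473030, minus strand). In Afp (chr5:90490464-90490763, plus strand) they mark the letters TATAAA.
Sparc: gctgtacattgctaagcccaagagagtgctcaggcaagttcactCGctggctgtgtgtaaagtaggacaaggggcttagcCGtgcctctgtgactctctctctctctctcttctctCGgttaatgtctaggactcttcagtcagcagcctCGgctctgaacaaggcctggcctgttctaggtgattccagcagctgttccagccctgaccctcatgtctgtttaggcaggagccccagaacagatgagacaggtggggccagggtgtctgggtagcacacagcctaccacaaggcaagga
Msx2: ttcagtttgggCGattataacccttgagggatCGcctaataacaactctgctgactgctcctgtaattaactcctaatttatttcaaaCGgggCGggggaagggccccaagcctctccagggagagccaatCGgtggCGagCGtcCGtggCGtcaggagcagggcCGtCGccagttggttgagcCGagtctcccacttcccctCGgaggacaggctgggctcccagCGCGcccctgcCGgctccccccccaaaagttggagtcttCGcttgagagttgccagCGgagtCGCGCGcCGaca
Afp: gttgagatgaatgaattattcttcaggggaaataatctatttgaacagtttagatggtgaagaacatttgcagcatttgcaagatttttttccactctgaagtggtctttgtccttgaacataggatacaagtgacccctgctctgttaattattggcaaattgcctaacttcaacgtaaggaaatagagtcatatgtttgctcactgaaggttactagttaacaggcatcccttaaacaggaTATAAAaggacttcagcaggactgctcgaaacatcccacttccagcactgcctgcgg
The windows held 4 CG dinucleotides in Sparc, 22 in Msx2 and 3 in Afp. Over all 32851 RefSeq windows of this length the median was 7, with quartiles of 3 and 20, so Msx2 lay above the upper quartile and the other two between the quartiles or on the lower one. TATAAA was searched on both strands and occurred in 13.6% of all windows. It was found once in that of Afp, at position -7 from the annotated start, and in neither of the others. These letters are a description of the windows, and no binding or methylation was measured.

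Most of the 38 genes were close to silent. The median level was 0.313 RPKM, against 3.42 RPKM for all 18341 genes tested. In all, 11 genes had a mean under 0.1 RPKM, 20 lay between 0.1 and 1, 6 between 1 and 10, and only Sparc was above 10. Sparc and Lrp2 together made up 85.9% of the summed level of the set, and no other member exceeded the median of all tested genes except Twist1. Each library held reads of 35 or 36 of the genes, but 10 or more reads of only 27 to 29. Because both reads of a pair were counted, 38 of the 51 counts from 1 to 20 were even, and such counts stand for fewer molecules than reads. The filter on low counts kept 29 genes for testing, and 9 were too low: Mesp1, Msgn1, Rspo3, Hand2, Foxf1, Msx1, Ttr, Apoa1 and Foxa2.

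**Figure D1:**
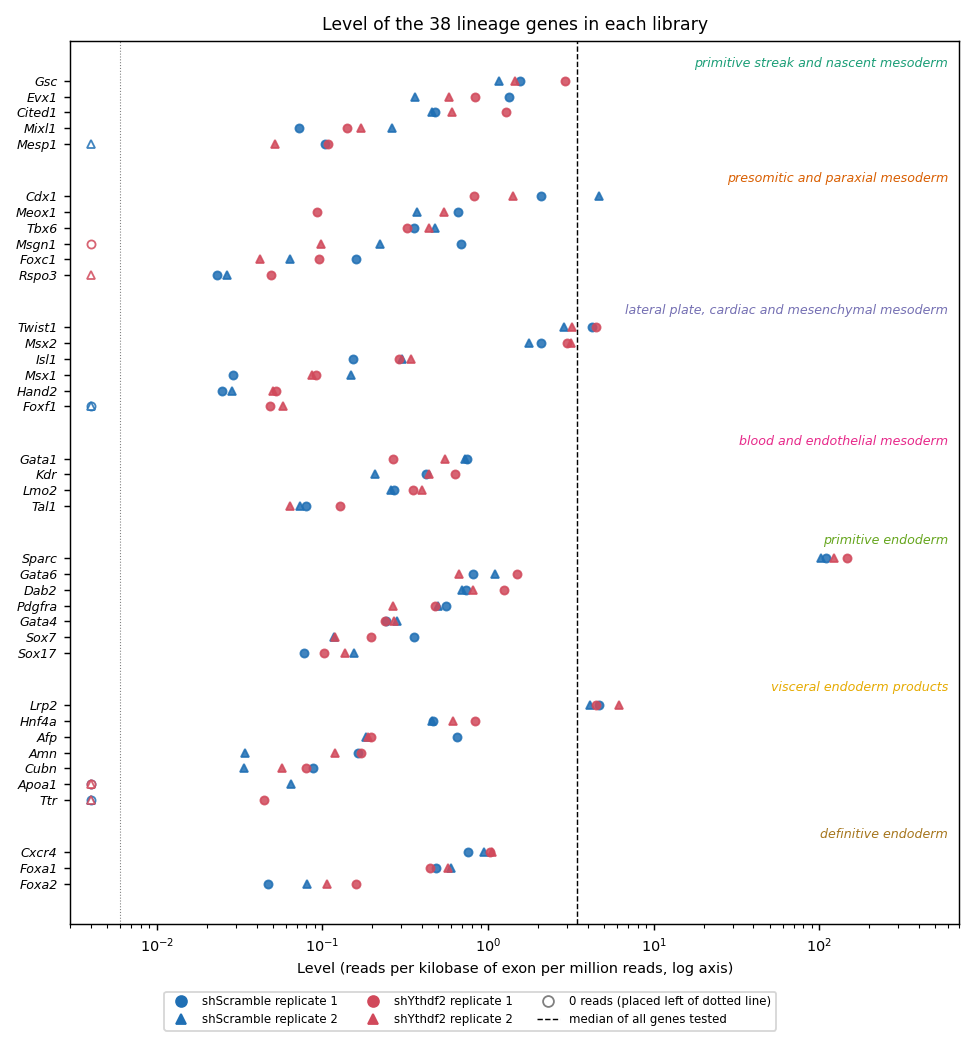
Level of each of the 38 genes in each library, in RPKM on a log axis, by lineage; blue marks are shScramble, red marks shYthdf2, circles replicate 1 and triangles replicate 2, and open marks left of the dotted line had 0 reads. Sparc lies far to the right at 106 RPKM in shScramble and 135 RPKM in shYthdf2, while most of the genes lie below 1 RPKM.

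None of the 29 tested genes passed the threshold of 0.05 on the p-value of the quasi-likelihood test in edgeR, adjusted by Benjamini-Hochberg over all 18341 genes, where 3.91% of all tested genes did. At an unadjusted p under 0.05, 2 genes were higher in shYthdf2 (Msx2 and Sparc) and 1 lower (Cdx1), against 11.0% higher and 9.80% lower among all genes tested. DESeq2 called 1 gene, Cdx1, at an adjusted p under 0.05, where it called 8.90% of the genes for which it gave an adjusted p. It gave none for 13 of the 38 genes. The limma-voom test called 0. In 8 of the 29 tested genes both shYthdf2 libraries lay above both controls and in 3 both lay below, where 26.2% and 25.5% of all tested genes did so. These shares are near those of all genes or below them. The median log2 fold change of the tested members was 0.15, with 17 positive and 12 negative, against 0.00 for all genes. The 95% interval of a member's log2 fold change was 2.09 wide at the median, and it excluded 0 only for Cdx1, Msx2 and Sparc. A missing call therefore does not show that a gene stayed the same.

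**Figure D2:**
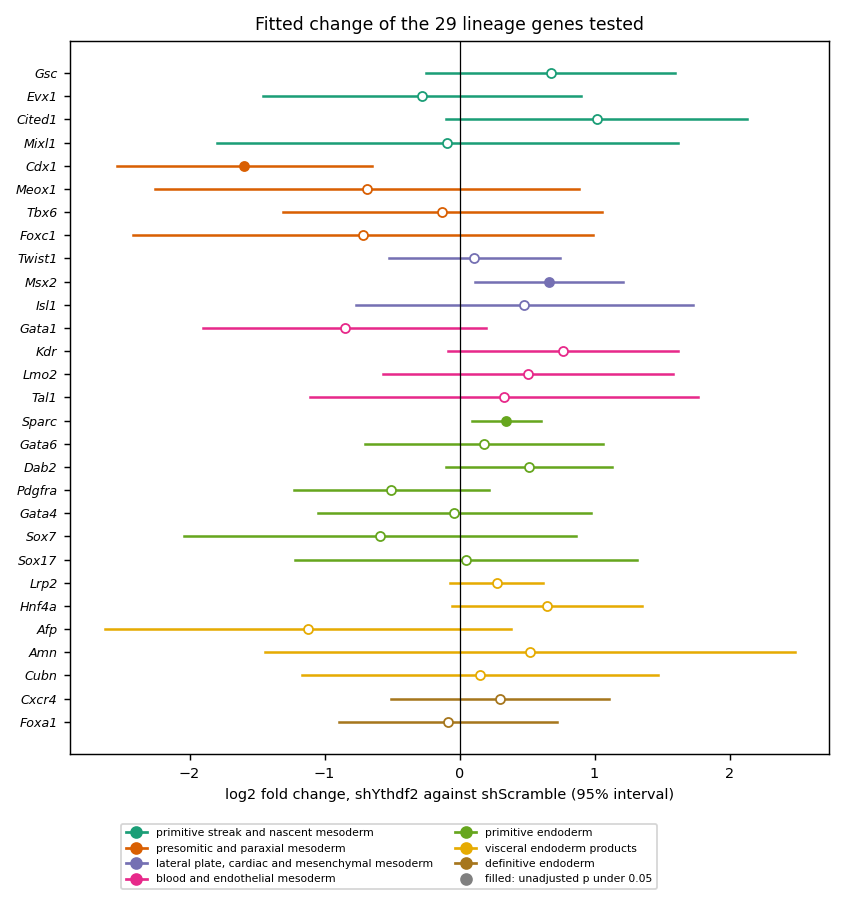
Fitted log2 fold change of shYthdf2 against shScramble with its 95% interval for the 29 tested genes, coloured by lineage; filled points have an unadjusted p under 0.05. The intervals of Cdx1 (-2.54 to -0.65), Msx2 (0.12 to 1.21) and Sparc (0.09 to 0.61) exclude 0 before adjustment, and the others include it.

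Among the primitive streak and nascent mesoderm genes, Gsc, a homeobox gene of the anterior streak and organizer, and Evx1, a homeobox gene of the posterior streak, had the highest levels, and neither passed the test. Gsc had 66 and 43 reads in the controls and 117 and 61 with shYthdf2. The shYthdf2 library of replicate 1 was highest and the groups overlapped. Its level was 1.36 ± 0.282 RPKM in shScramble and 2.18 ± 1.03 RPKM in shYthdf2 (SD, n = 2), and the fitted log2 fold change was 0.68 (SE 0.41, 95% interval -0.25 to 1.60, edgeR adjusted p = 0.39). For Gsc this fell to 0.089 without shYthdf2 replicate 1 and was 1.09 without shYthdf2 replicate 2. Evx1 had 139 and 33 reads in the controls and 82 and 60 with shYthdf2, so the controls differed from each other more than the groups did. Its log2 fold change was -0.28 (SE 0.53, edgeR adjusted p = 0.82). Leaving out shScramble replicate 2 gave -0.92 and leaving out shScramble replicate 1 gave 0.96, so its direction rested on 1 control library. Cited1, a transcriptional co-regulator found in nascent mesoderm, had 26 and 22 reads against 67 and 33, both shYthdf2 libraries above both controls, with a log2 fold change of 1.01 (SE 0.50, 95% interval -0.10 to 2.13, edgeR adjusted p = 0.29) and values of 0.37 to 1.46 when a library was left out. Mixl1, a homeobox gene of the streak, had 6 and 19 reads against 11 and 14. Mesp1, a basic helix-loop-helix factor of the earliest cardiac mesoderm, had 4 and 0 reads against 4 and 2 and was not tested. The summed level of the 5 genes was 3.55 and 2.25 RPKM in shScramble and 5.28 and 2.86 RPKM in shYthdf2, overlapping groups, and without Gsc it was 1.99 and 1.09 against 2.37 and 1.41 RPKM.

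All 4 tested genes of the presomitic and paraxial mesoderm had negative log2 fold changes, with a median of -0.70, although Tbx6, Meox1 and Foxc1 turned positive when a library was left out. Of the 8 other tested genes of this lineage, outside the set of 38, 5 were positive, with a median of 0.38. Cdx1 had the lowest p-value of all the genes in the set. Cdx1 encodes a caudal-type homeobox factor of the posterior embryo, a target of Wnt and retinoic acid signalling. It had 131 and 258 reads in the controls and 49 and 88 with shYthdf2. Both shYthdf2 libraries were below both controls, and the controls differed from each other more than the knockdown libraries did. The level of Cdx1 was 3.38 ± 1.84 RPKM in shScramble and 1.11 ± 0.414 RPKM in shYthdf2 (SD, n = 2), 32.9% of the control. Its log2 fold change was -1.60 (SE 0.42, 95% interval -2.54 to -0.65), with an unadjusted p of 0.0037 and an edgeR adjusted p of 0.069, which missed the threshold. The call depended on the processing. Cdx1 passed as lower in 7 of 13 alternatives, among them DESeq2 (adjusted p = 0.0083) but not limma-voom (adjusted p = 0.11). Leaving out shScramble replicate 2, the library with most reads of Cdx1, gave -0.90 (edgeR adjusted p = 0.30), and leaving out shScramble replicate 1 gave -2.07. A share of 29.9% of the exon bases of Cdx1 lies in a gene annotated on the opposite strand, Gm52351, which counting without strand cannot separate. Reads over both genes were left out of the counts, and Gm52351 itself had 1 and 2 reads against 2 and 3.

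The other genes of this lineage had fewer reads. Meox1, a homeobox gene of the somites, had 52 and 26 reads in shScramble and 7 and 43 in shYthdf2, and the knockdown libraries lay on either side of a control. Its log2 fold change of -0.69 (SE 0.70, 95% interval -2.26 to 0.88, edgeR adjusted p = 0.63) was 0.076 without shYthdf2 replicate 1 and -2.45 without shYthdf2 replicate 2. Tbx6, a T-box gene that specifies paraxial mesoderm, had 22 and 26 reads against 19 and 27, and Foxc1, a forkhead gene of paraxial mesoderm and vessels, 23 and 8 against 13 and 6. Msgn1, a basic helix-loop-helix gene of the presomitic mesoderm, had 14 and 4 reads against 0 and 2, and Rspo3, a secreted enhancer of Wnt signalling, 2 and 2 against 4 and 0. Neither passed the filter. Without Cdx1, the summed level of the group was 1.88 and 1.17 RPKM in shScramble and 0.561 and 1.12 RPKM in shYthdf2, so the shYthdf2 libraries lay below the controls but that of replicate 2 by little.

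Lateral plate, cardiac and mesenchymal mesoderm was represented mainly by Twist1 and Msx2. Msx2 encodes a homeobox factor induced by BMP signalling in limb, skull and other mesenchyme, and lies on chromosome 13. It had 163 and 121 reads in shScramble and 221 and 244 in shYthdf2, and both shYthdf2 libraries were above both controls. Its level was 1.93 ± 0.224 RPKM in shScramble and 3.07 ± 0.116 RPKM in shYthdf2 (SD, n = 2). The log2 fold change of Msx2 was 0.67 (SE 0.25, 95% interval 0.12 to 1.21), with an unadjusted p of 0.022 and an edgeR adjusted p of 0.16. It passed in 1 of 13 alternatives. When a library was left out, the value for Msx2 stayed between 0.55 and 0.79. Twist1, a basic helix-loop-helix factor of mesenchyme, had 248 and 147 reads in the controls and 249 and 186 with shYthdf2. The replicates numbered 1 were almost equal in the 2 groups. Its level was 3.54 ± 0.963 and 3.83 ± 0.905 RPKM (SD, n = 2), and the fitted log2 fold change was 0.11 (SE 0.28, 95% interval -0.52 to 0.74, edgeR adjusted p = 0.88), which turned to -0.14 without shScramble replicate 2 and to -0.16 without shYthdf2 replicate 1. Isl1, a LIM-homeobox gene of the second heart field, had 14 and 24 reads against 25 and 31. The remaining genes were barely read. Foxf1, a forkhead gene of lateral plate mesoderm, had 0 reads in both controls and 4 and 5 reads in shYthdf2, and was not tested. Hand2, a basic helix-loop-helix gene of heart and limb, had 2 and 2 reads against 4 and 4. Msx1, a relative of Msx2, had 2 and 9 against 6 and 6, and 58.9% of its exon bases lie in an antisense gene, Msx1os, which had 0 reads in every library.

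The blood and endothelial genes had mean levels under 1 RPKM and none passed the test. Gata1, the zinc finger factor of red blood cell and megakaryocyte development, had 56 and 48 reads in shScramble and 19 and 41 in shYthdf2. Both shYthdf2 libraries were lower than the controls, replicate 1 by far the more. The log2 fold change of Gata1 was -0.85 (SE 0.47, 95% interval -1.90 to 0.20, edgeR adjusted p = 0.34), between -1.46 and -0.43 when a library was left out. Kdr, the VEGF receptor that marks blood and vessel progenitors, had 117 and 50 reads in shScramble and 167 and 121 in shYthdf2. Both shYthdf2 libraries lay above both controls, but shYthdf2 replicate 2 exceeded shScramble replicate 1 only slightly. The log2 fold change of Kdr was 0.77 (SE 0.38, 95% interval -0.09 to 1.62, edgeR adjusted p = 0.29). Leaving out shScramble replicate 2 gave 0.35, and leaving out shScramble replicate 1 gave 1.38. Tal1, a helix-loop-helix factor needed for blood formation, had 15 and 12 reads against 23 and 12, and its partner Lmo2 had 25 and 21 against 31 and 37. The summed level of the 4 genes was 1.52 and 1.27 RPKM in shScramble and 1.38 and 1.45 RPKM in shYthdf2.

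In primitive endoderm, Sparc stood apart from the transcription factors. Sparc encodes a secreted matrix glycoprotein that parietal endoderm makes in large amounts, and other cell types make it too. It had 10640 and 8642 reads in the controls and 13480 and 11833 with shYthdf2, and both shYthdf2 libraries were above both controls. The level of Sparc was 106 ± 5.55 RPKM in shScramble and 135 ± 16.7 RPKM in shYthdf2 (SD, n = 2). Its log2 fold change was 0.35 (SE 0.12, 95% interval 0.09 to 0.61), with an unadjusted p of 0.014 and an edgeR adjusted p of 0.13. Sparc passed as higher in 3 of 13 alternatives, each of which called more genes overall than the main fit. Over all genes, 1095 were called higher with no filter and 1851 with the replicate block, against 445 in the main fit. Its value was lowest, at 0.21, without shYthdf2 replicate 1 and highest, at 0.47, without shYthdf2 replicate 2.

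The factors that specify primitive endoderm were low and did not share a direction. Gata6, a zinc finger factor at the head of this programme, had 96 and 115 reads in the controls and 169 and 79 with shYthdf2, so the knockdown libraries held both the highest and the lowest value. Its log2 fold change was 0.18 (SE 0.39, 95% interval -0.70 to 1.06, edgeR adjusted p = 0.85), 0.65 without shYthdf2 replicate 2 and -0.51 without shYthdf2 replicate 1. Gata4, a related factor, had 32 and 33 reads against 30 and 36 (log2 fold change -0.04, 95% interval -1.05 to 0.98). Sox17, an HMG-box factor of endoderm, had 16 and 28 against 20 and 28, and Sox7, a close relative, 42 and 12 against 22 and 14. Pdgfra, a receptor tyrosine kinase on the surface of primitive endoderm, had 183 and 143 reads against 149 and 87 (log2 fold change -0.50, 95% interval -1.23 to 0.22). Dab2, an endocytic adaptor of primitive and visceral endoderm, had 172 and 143 reads against 276 and 187, with both shYthdf2 libraries higher (log2 fold change 0.51, 95% interval -0.10 to 1.13, edgeR adjusted p = 0.33). Pdgfra and Dab2 thus lay on opposite sides of 0, neither past the test. When a library was left out, Pdgfra ran from -0.98 to -0.14 and Dab2 from 0.16 to 0.79. The summed level of the group without Sparc was 2.77 and 2.86 RPKM in shScramble and 3.75 and 2.27 RPKM in shYthdf2, with the control libraries between the others.

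Among the visceral endoderm products, Lrp2 was read by far the most. Lrp2 encodes megalin, an endocytic receptor that works with cubilin (Cubn) and amnionless (Amn) at the surface of absorptive epithelia. It had 2604 and 2012 reads in the controls and 2370 and 3420 with shYthdf2, and the groups overlapped because shYthdf2 replicate 1 lay within the control range of reads. The level of Lrp2 was 4.41 ± 0.387 RPKM in shScramble and 5.34 ± 1.20 RPKM in shYthdf2 (SD, n = 2), and the fitted log2 fold change was 0.28 (SE 0.15, 95% interval -0.07 to 0.62, edgeR adjusted p = 0.35). Without shYthdf2 replicate 1 the value for Lrp2 was 0.49, and without shYthdf2 replicate 2 it was 0.03. The partners of megalin were far lower, with 36 and 12 reads against 31 and 23 for Cubn and 11 and 2 against 11 and 8 for Amn.

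Hnf4a, a nuclear receptor needed for visceral endoderm function, had 79 and 68 reads in shScramble and 134 and 104 in shYthdf2, both knockdown libraries above both controls. Its level was 0.463 ± 0.00529 RPKM and 0.726 ± 0.152 RPKM (SD, n = 2), and the fitted log2 fold change was 0.65 (SE 0.32, 95% interval -0.06 to 1.35, edgeR adjusted p = 0.28). Of the 3 serum proteins in this lineage group, Ttr and Apoa1 were near or at 0, and Afp had few reads. Apoe, a lipid carrier of visceral endoderm and other cells outside the set, had 8330 to 12799 reads. Afp, the fetal serum protein alpha-fetoprotein, had 49 and 12 reads against 14 and 14. Only shScramble replicate 1 was high, and the log2 fold change of Afp of -1.13 (95% interval -2.63 to 0.38, edgeR adjusted p = 0.38) was 0.072 without that library. Ttr, the thyroid hormone carrier transthyretin, had 0 and 0 reads against 2 and 0, and Apoa1, the main protein of high-density lipoprotein, 0 and 2 against 0 and 0. Neither reached 3 reads in total, so no fold is given.

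Of the 3 genes of definitive endoderm, the 2 tested had log2 fold changes smaller than their standard errors. Cxcr4, a chemokine receptor on definitive endoderm and other migrating cells, had 50 and 55 reads in shScramble and 65 and 70 in shYthdf2, with a log2 fold change of 0.30 (SE 0.36, 95% interval -0.50 to 1.11, edgeR adjusted p = 0.69). Both shYthdf2 libraries were higher than both controls by a margin smaller than that error. Foxa1, a forkhead pioneer factor of gut endoderm, had 61 and 65 reads against 53 and 71, with a log2 fold change of -0.09 (SE 0.36, 95% interval -0.89 to 0.72, edgeR adjusted p = 0.93). Foxa1 changed sign without shScramble replicate 2 and without shYthdf2 replicate 1. Foxa2, a relative that acts in the anterior streak and endoderm, had 4 and 6 reads against 13 and 9 and was not tested, although both shYthdf2 libraries were higher.

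Set side by side, the lineages had median log2 fold changes of 0.29 in the primitive streak (4 genes tested), -0.70 in presomitic and paraxial mesoderm (4), 0.48 in lateral plate mesoderm (3), 0.42 in blood and endothelial mesoderm (4), 0.05 in primitive endoderm (7), 0.28 in visceral endoderm products (5) and 0.11 in definitive endoderm (2). These medians describe few genes each and carry no test. The other genes of the same lineages were listed from general knowledge, but with earlier results of these data known. Their medians were -0.33 in the primitive streak (0 of 5 tested positive) and 0.38 in presomitic and paraxial mesoderm (5 of 8). In lateral plate mesoderm the median was 0.029 (4 of 7), and in blood and endothelial mesoderm -0.54 (2 of 7). It was -0.028 in primitive endoderm (5 of 11), 0.20 in visceral endoderm products (5 of 9) and -0.23 in definitive endoderm (1 of 4). The sign was thus opposite to that of the 38 genes in 5 of the lineages. With only genes at a mean of 1 CPM or more, Cdx1 alone remained in presomitic and paraxial mesoderm, and the median there was its own value, -1.60. The sign of the median changed without 1 library in primitive endoderm, visceral endoderm products and definitive endoderm, and stayed the same in the other 4 lineages. In blood and endothelial mesoderm it changed, to -0.049, when genes under 1 CPM on average were dropped.

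**Figure D3:**
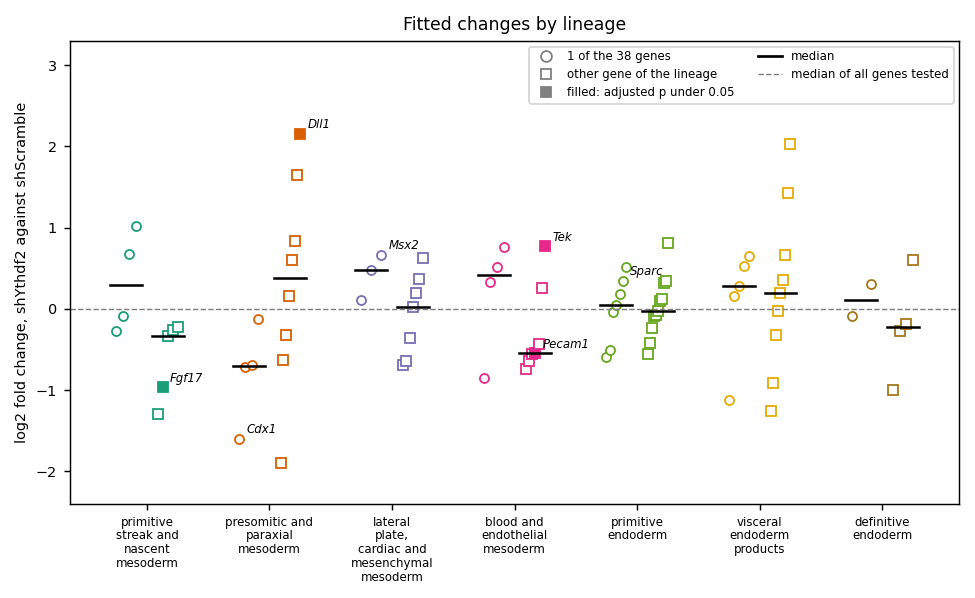
Fitted log2 fold change of shYthdf2 against shScramble for each tested gene by lineage; circles are genes of the 38, squares other genes of the same lineages, filled marks passed an adjusted p under 0.05, black lines are medians and the dashed line is the median of all genes tested. No circle is filled, the circles of presomitic and paraxial mesoderm all lie below 0, and the filled squares are Dll1, Tek, Fgf17 and Pecam1.

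The other genes of the same lineages gave the wider context. Of 72 such genes with a row, 51 were tested, 7 had no read in any library, and the median log2 fold change was -0.09. At an adjusted p under 0.05, 2 of the 51 rose and 2 fell, where 3.91% of all genes tested passed in either direction. At an unadjusted edgeR p under 0.05, 9 were higher and 8 lower, against 11.0% and 9.80% of all genes. These shares lay above those of all genes, in a list made with earlier results of these data known. Dll1, a Notch ligand of the presomitic mesoderm and of neural progenitors, rose from 20 and 29 reads to 147 and 81 (log2 fold change 2.15, SE 0.45, edgeR adjusted p = 0.034). The rise of Dll1 missed the threshold without shYthdf2 replicate 1 (1.62, edgeR adjusted p = 0.074) and in limma-voom (adjusted p = 0.056). Its direction was opposite to that of Cdx1, which lies in the same lineage group. Fgf17, a fibroblast growth factor made in the streak, fell from 1091 and 850 reads to 489 and 542 (log2 fold change -0.96, SE 0.15, edgeR adjusted p = 0.013). Tek, the angiopoietin receptor Tie2 of vessels, rose from 889 and 786 reads to 1656 and 1305 (log2 fold change 0.77, SE 0.16, edgeR adjusted p = 0.031). Pecam1, an adhesion molecule of vessels that ESCs also carry, fell from 7144 and 5419 reads to 4724 and 4159 (log2 fold change -0.54, SE 0.12, edgeR adjusted p = 0.043), and it missed the threshold without shScramble replicate 1 (-0.43, edgeR adjusted p = 0.11). The genes that passed in blood and endothelial mesoderm thus moved in both directions.

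**Figure D4:**
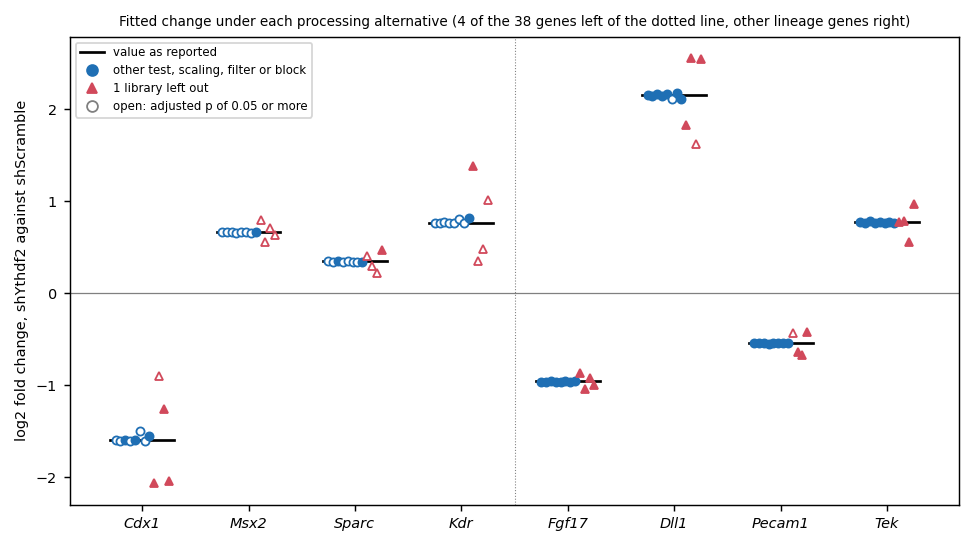
Fitted log2 fold change of Cdx1, Msx2, Sparc and Kdr, left of the dotted line, and of 4 other lineage genes under each processing alternative that gives its own adjusted p; black lines are the values as reported, triangles leave out 1 library, and open marks had an adjusted p of 0.05 or more. No gene shown changes sign, Cdx1 runs from -2.07 to -0.90, and Kdr runs from 0.35 to 1.38.

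Markers of other cell types were read beside these genes. The fibroblast list of 10 genes summed to 9.97 and 10.6 RPKM in shScramble and 6.22 and 9.55 RPKM in shYthdf2. Of its 5 tested genes 0 were called. Without Thy1 the sum was 2.35 and 1.88 RPKM against 1.73 and 1.73 RPKM. Dcn had 0 reads in every library, but Thy1 had 266 to 486, Fbn1 398 to 584 and Col1a1 47 to 125. The neuroectoderm list summed to 76.4 and 50.3 RPKM against 122 and 89.7 RPKM. All 5 of its tested genes were positive, and 2, Sox3 and Nes, passed as higher in edgeR. The trophoblast list summed to 47.4 and 52.6 RPKM against 41.2 and 33.0 RPKM, and 1 of its 5 tested genes, Esx1, passed as lower. Esx1 had 27.5 and 29.2 RPKM in shScramble and 11.0 and 9.95 RPKM in shYthdf2. Tfap2c, the most abundant of the list, was higher in both shYthdf2 libraries, at 18.3 and 21.1 RPKM against 27.9 and 21.5 RPKM. Of the 5 tested trophoblast genes 2 were positive and 3 negative, so the lower sum does not describe the list as a whole. All 11 tested markers of 2-cell-like cells were positive, and 3 passed as higher. Of the 10 ESC markers 8 were negative, and 1, Tdgf1, a co-receptor for Nodal, passed as lower. Of all genes tested 3.91% passed in either direction. At an unadjusted edgeR p under 0.05, 10 of the 2-cell-like and 3 of the neuroectoderm markers were higher, against 11.0% of all genes. At that threshold 4 ESC, 2 trophoblast and 1 fibroblast marker were lower, against 9.80%, and 1 trophoblast marker was higher. The part of such cells in the values of Cdx1, Msx2, Sparc or the other lineage genes was not tested.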

How the data were processed

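RNA-seq of 4 libraries of E14 ESCs (2 shScramble, 2 shYthdf2) was examined, with groups and replicate numbers taken from the titles. The authors deposited 1 table of raw read counts per gene, with no normalization and no pooling. Per the file headers it was made with featureCounts 2.0.3 over RefSeq exons of mm10. Both reads of a pair were counted, no strand setting was used although the libraries were stranded by dUTP, and reads over several genes were left out. The submitters' processing notes name fastp 0.19.4, HISAT2 2.2.1 and DESeq2 1.40.2. The table held 0 further columns of values per sample.

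Differential expression was tested with edgeR 4.0.16 (R 4.3.3): quasi-likelihood F test, two-sided, TMM scaling, filterByExpr (minimum count 10, minimum total 15), no covariates, with p-values adjusted by Benjamini-Hochberg across the 18341 genes kept, which held 99.92% of reads. Intervals of 95% used the standard error and the moderated degrees of freedom. RPKM was computed from the deposited exon length and the TMM-scaled totals of the genes kept, and CPM from the same totals. DESeq2 1.42.0, limma-voom (limma 3.58.1), 2 other scalings, 2 other filters, halved counts, the study's criteria (unadjusted p at most 0.05, absolute log2 fold change at least 1), a replicate block and leaving out each library were the alternatives. With 2 against 2 libraries an exact two-sided permutation test cannot give a p below 0.333, and only the model's p-values are given.

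The 38 genes, the lineage groups and the other lists were chosen with earlier results of these data known. Reads in every library and the full test are given for genes with an adjusted or unadjusted p under 0.05 and for the 2 genes of each lineage with the highest mean RPKM; the rest are given by reads. Other genes whose changes are quoted were chosen after their values were seen, as were the promoters shown.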

Additional observations from a re-analysis of the deposited data

How the results depend on the processing

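Over all genes tested, 445 were higher and 273 lower in shYthdf2. These counts were 1095 and 843 with no filter, 800 and 602 with DESeq2, and 1851 and 1674 with the replicate number as a block. They ran from 534 to 1175 and from 300 to 1113 when a library was left out. Of the 38 genes, 0 were called higher. With no filter 1 was (Sparc), with the block 3 (Msx2, Sparc and Kdr), and without a library 0 to 1. Likewise 0 were called lower, 1 (Cdx1) with no filter, with DESeq2, with the study's criteria and with the block, and 0 to 2 without a library, where Meox1 joined Cdx1 in the fit without shYthdf2 replicate 2. Of the other lineage genes, 2 were higher, 6 with no filter, 1 in limma-voom, 4 by the study's criteria, 9 with the block and 1 to 4 without a library, and 2 were lower, 4 with no filter, 6 with the block and 2 to 5 without a library. The block pairs libraries only by number. The deviations of replicate 1 from replicate 2 in the 2 groups correlated at r = 0.238 over 18341 genes, which are not independent, and 2 pairs cannot establish pairing.

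With a filter at a mean of 1 CPM the lineage medians were 0.67 in primitive streak, -1.60 in presomitic, 0.38 in lateral plate, -0.049 in blood and endothelial mesoderm and 0.25 in primitive endoderm, since fewer genes were tested. Halved counts gave 0.63 in primitive streak and limma-voom 0.56 in lateral plate. Without a library the medians ran from 0.064 to 0.93 in primitive streak, -1.20 to -0.28 in presomitic, 0.35 to 0.60 in lateral plate, 0.11 to 0.58 in blood, -0.14 to 0.29 in primitive endoderm, -0.16 to 0.66 in visceral endoderm products and -0.04 to 0.27 in definitive endoderm. Among the 14 genes given with the full test, signs turned only in fits without 1 library, in 5: Evx1 (-0.92 to 0.96), Meox1 (-2.45 to 0.076), Twist1 (-0.16, -0.14 and up to 0.42), Gata6 (-0.51, -0.030 and up to 0.65) and Foxa1 (-0.27 to 0.062 and 0.080). Of the other 15 tested genes 10 turned without 1 library (Mixl1, Tbx6, Foxc1, Tal1, Gata4, Sox17, Sox7, Afp, Cubn and Amn), and Mixl1 also in limma-voom and with the block. The cause was not tested. Such fits assume that the lone library varies like the other group. Depth limits the low genes: 9 of 38 could not be tested.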

Other observations

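Further lineage genes, chosen after their values were seen, had separated groups without passing the main edgeR test. Dkk1, a secreted Wnt inhibitor of anterior endoderm and mesoderm, had 0 and 0 reads in shScramble and 8 and 14 in shYthdf2. The filter on low counts removed it from the main test, and it passed as higher in edgeR with no filter and by the study's criteria in DESeq2. Lfng, which modifies Notch receptors in the presomitic mesoderm, had 6 and 12 reads against 29 and 31 (log2 fold change 1.65, 95% interval 0.26 to 3.04, edgeR adjusted p = 0.17). Foxc2, a forkhead gene of paraxial mesoderm, had 18 and 32 against 8 and 6 (log2 fold change -1.89, 95% interval -3.41 to -0.37, edgeR adjusted p = 0.15). T (brachyury), the T-box gene of the primitive streak, had 54 and 94 reads against 43 and 20 (log2 fold change -1.30, 95% interval -2.43 to -0.16, edgeR adjusted p = 0.18), and passed as lower in 5 of 13 alternatives.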
